A study of Mus musculus with 12 samples.

Results

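The baseline transcriptome of the meninges was described from the 6 libraries titled as meninges of control mice, of 12 libraries in the series. Each library held total RNA of 1 mouse of strain C57bl/6 with the treatment label Control. The other 6 mice carry the label DSS, for dextran sulfate sodium, a chemical used to inflame the colon of mice. The protocol gives it at 2% for the first 5 days; their libraries were not used here. It gives culling after 6 days and describes no treatment for controls, and the labels give no age, sex or batch. Levels are given for every gene in every control mouse, with the spread between mice as the error.

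The meninges wrap the brain in a tough outer dura against the skull, an arachnoid barrier layer and a thin pia on the brain surface. Fibroblasts make most of their matrix, and blood vessels, lymphatic vessels, nerve fibres, mast cells and border-associated macrophages run through or sit in it. The dura adheres to bone, and the pineal gland, the choroid plexus, the pituitary and the olfactory region lie close to it.

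The libraries held 9312788 to 41869997 counts over 47747 gene symbols. Altogether 6 features were left out of the total before levels were computed, namely the 18S ribosomal RNA features Rn18s-rs5 and AY036118, the signal recognition particle RNAs Rn7s1 and Rn7s2, and both mitochondrial ribosomal RNAs. They took 16.0% to 24.9% of counts in 5 mice and 67.7% in Control 2, where the 18S features alone took 59.8% against 0.194% to 9.23% in the others. Levels are given as CPM, a gene's counts scaled to the same total in each mouse, over the 7702772 to 33532238 counts that remained. The least and the most deeply sequenced mice therefore had a floor of 3 counts at 0.389 and 0.0895 CPM. A CPM of at least 1 in every mouse was reached by 15409 genes, of which 13294 were nuclear protein-coding genes, and 16068 symbols had 0 counts in all 6 mice. Spearman correlations between libraries were 0.970 to 0.983 over the 15 pairs. In every pair the counts differed beyond counting error, with a chi-square per degree of freedom of at least 18.2.

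The source label names colon, whereas the titles and the extraction protocol name meninges. Of 11 genes of colon epithelium, 1 was detected, which here means a CPM of at least 1 in all 6 mice, a mark that 32.3% of the 47741 symbols kept in the total reached. That gene was Lgals4, a galectin, at 3.84 to 5.40 CPM. Cdx2, Slc26a3 and Fabp2, which mark gut epithelium, had 0 counts in every control mouse. Genes for transcription factors of meningeal fibroblasts were all detected. Foxc1, which the meninges need to form, lay between 112 and 160 CPM with a median of 136, and Zic1 between 106 and 150 CPM with a median of 128. The data therefore go with the titles and not with the source label.

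Structural RNAs, collagen genes and Ttr were among the most abundant features outside those left out. Of the 25 features with the highest mean CPM, 8 were nuclear protein-coding genes, 2 were mitochondrial protein-coding genes and 15 were other or unmatched features. A set of 13 features taken as structural RNAs and still in the total took 18.2% to 31.0% of it, with the highest share in Control 6. The set includes Rn7sk, Rpph1 and Rmrp, and Gm26917 and Gm42418, which are annotated as long non-coding RNAs. It also includes AC099934.1, AC099934.2, AC157822.1, AC157822.2 and AC156953.1, which matched no annotated gene, so their kind is not known here. AC099934.2 and AC157822.2, which lie at 48498 ± 14443 and 48350 ± 14207 CPM (SD, n = 6), carried 0.924 to 0.982 of the counts of Rn7s1 and 0.923 to 0.983 of those of Rn7s2. Whether these features share reads was not tested. Malat1, a nuclear long non-coding RNA, lay between 3339 and 6561 CPM with a median of 4559, highest in Control 1 and lowest in Control 6.

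**Figure D1:**
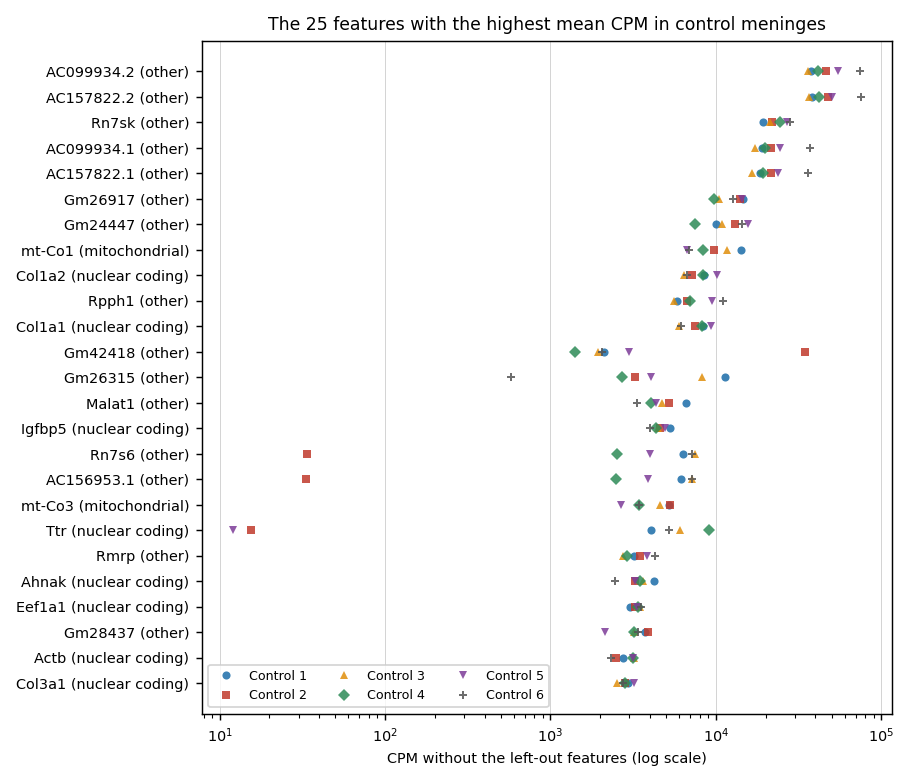
CPM of the 25 features with the highest mean over the 6 control mice, on a log axis, with 1 symbol per mouse. Col1a2 and Col1a1 lie within a narrow range in all 6 mice, whereas Gm42418 stands apart in Control 2, Rn7s6 and AC156953.1 are low there, and Ttr is low in Controls 2 and 5.

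The 10 most abundant nuclear coding genes took 5.61% to 7.51% of nuclear coding counts, the top 100 took 17.0% to 18.5% and the top 1000 took 45.1% to 46.5%. Collagen genes, of which 39 of 44 were detected, made up 3.40% to 4.82% of nuclear coding counts, and ribosomal protein genes 1.95% to 2.79%. The collagen share of counts was thus above the ribosomal protein share in the range over mice. Neither share is corrected for gene length, which was 12426 exon bases for Col1a2 and 499 for the ribosomal protein gene Rplp1. The shares therefore give no order of the numbers of transcripts.

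Read counts favour long genes, so levels of different genes were compared per exon length, as TPM, in which counts are divided by exon length and scaled to the same total in each mouse. On that scale the order among nuclear coding genes began with Ttr, the thyroid hormone carrier transthyretin (7116 ± 6400 TPM, SD, n = 6), whose spread over mice was nearly as large as its mean. Eef1a1, a translation elongation factor, followed at 2709 ± 195 TPM, then the osteocalcin gene Bglap2 at 2624 ± 965 TPM. Mgp, the matrix Gla protein that limits calcification, stood at 2491 ± 131 TPM and Col1a1 at 2345 ± 410 TPM. From Eef1a1 to Col1a1 neighbours in this order differed by less than the larger of their SDs. Among the first 15 were also the haemoglobin genes Hbb-bs and Hbb-bt, the cystatin gene Cst3, the prostaglandin D synthase gene Ptgds (1935 ± 566 TPM) and the lipid carrier gene Apoe (1787 ± 174 TPM). This order used the union of annotated exons as length. With the longest annotated transcript it changed: Mgp (3700 TPM) lay above Eef1a1 (3368 TPM), and Cst3 (2735 TPM) above Col1a1 (2322 TPM).

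Fibroblast and matrix genes were high and even. All 25 genes of the list were detected, and their sum lay between 33800 and 43335 CPM with a median of 38619, highest in Control 5 and lowest in Control 6. Its coefficient of variation over mice was 9.80%. The lowest mouse depends on the scaling, since Control 3 stood close to Control 6, at 34348 CPM. TMM scaling, which allows for differences in RNA composition, shifts Control 6 by 0.19 and Control 3 by -0.12 on the log2 scale. In bulk tissue, a lower level can mean fewer cells of a type or less RNA per cell, which cannot be told apart.

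The chains of type I collagen, the main fibre of tendon-like membranes, had the highest mean CPM over the 6 mice among nuclear coding genes, although Lars2 in Control 2 and Ttr in Control 4 were higher than both. Col1a2 (GRCm38 chr6:4504814-4541544, plus strand) lay between 6389 and 10127 CPM with a median of 7789. Col1a1 (chr11:94936224-94953042, plus strand) lay between 6016 and 9338 CPM with a median of 7831. Both were highest in Control 5 and lowest in Control 3. Col3a1, the collagen of pliable tissue, lay between 2537 and 3192 CPM with a median of 2818.

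Within each mouse, Col1a1 was more abundant per exon length than Col3a1, by 1.98 ± 0.17 on the log2 scale (SD, n = 6; 6 of 6 mice; exact two-sided sign-flip permutation test, p = 0.03125, the smallest that 6 mice allow, 0.0341 after Benjamini-Hochberg adjustment over 12 pairs tested). The order of Col1a1 and Col1a2 depended on the gene length used. With the union of annotated exons Col1a1 was higher by 0.86 ± 0.07 in 6 of 6 mice, and with the longest annotated transcript it was lower, at -0.21 ± 0.07, in all 6 (adjusted p = 0.0341 in each, exact permutation test). No order of the chains can be read from these counts.

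Small proteoglycans and other matrix genes followed. Igfbp5, which binds insulin-like growth factors, lay between 4003 and 5291 CPM with a median of 4510. Sparc, a collagen-binding glycoprotein gene, lay between 2358 and 2903 CPM with a median of 2589. The proteoglycan genes Dcn, Bgn, Lum, Fmod and Ogn had mean levels from 403 to 1166 CPM, and Ogn, the osteoglycin gene, spread most of them, from 654 CPM in Control 5 to 1137 CPM in Control 2. Mgp lay between 1379 and 1597 CPM with a median of 1437, with a biological coefficient of variation (the spread over mice after removal of counting error) of 5.12%. The lowest member of the list was Dpt, which encodes dermatopontin, at 6.32 to 8.92 CPM.

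The growth factor receptor genes of fibroblasts and mural cells could be set side by side per length. Pdgfra, the receptor gene typical of fibroblasts, was lower than Pdgfrb, found in mural cells and some fibroblasts, by 2.49 ± 0.08 on the log2 scale in 6 of 6 mice (exact permutation test, adjusted p = 0.0341). Pdgfra lay between 128 and 180 CPM with a median of 155, and Pdgfrb between 418 and 546 CPM with a median of 477.

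Genes reported for the pia, the arachnoid and the dura were all detected, 28 of 28, with a summed level between 2656 and 4334 CPM. Control 6 was lowest and Control 2 highest, and Ptgds alone supplied 42.5% of the list's counts. Ptgds, which makes prostaglandin D2 and is a leptomeningeal product, lay between 889 and 2030 CPM with a median of 1723. It was lowest in Controls 5 and 6, at 1158 and 889 CPM, and at 1592 to 2030 CPM in the others. Aldh1a2, which makes retinoic acid, lay between 63.4 and 103 CPM with a median of 71.0. The arachnoid barrier genes Cdh1, the E-cadherin gene, and Cldn11, a tight junction claudin gene, lay between 16.0 and 35.9 CPM and between 94.6 and 144 CPM, both lowest in Control 6. Slc47a1, an organic cation exporter of the dura and arachnoid, lay between 261 and 375 CPM. The transcription factor gene Alx4, by contrast, had a biological coefficient of variation of 4.04%.

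Blood vessel genes were clear, and the shorter list of lymphatic genes had a lower sum. Of 22 genes of blood endothelium, 20 were detected, and the sum fell between 1727 CPM in Control 6 and 2713 CPM in Control 1. Here too the lowest mouse depends on the scaling, since TMM raises Control 6 and lowers Control 3, which stood at 2084 CPM. Vwf, the von Willebrand clotting factor gene, lay between 322 and 666 CPM with a median of 476. Pecam1, a junction protein gene of all endothelium, lay between 163 and 227 CPM with a median of 190, and Cldn5 (chr16:18776847-18778262, plus strand), the main claudin gene of brain and barrier endothelium, between 52.1 and 80.0 CPM with a median of 64.0. Plvap, which forms the diaphragms of fenestrated vessels such as those of the dura, lay at 135 to 202 CPM. The brain capillary lipid transporter gene Mfsd2a was near the limit, at 0.212 to 2.34 CPM, and E-selectin, from Sele, at 0.389 to 2.32 CPM.

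All 7 lymphatic genes were detected, with a sum of 227 to 322 CPM, and 1 of them, Lyve1, is also a macrophage gene. Prox1, the master regulator of lymphatic identity, lay between 2.74 and 5.10 CPM with a median of 3.28, and Ccl21a, the chemokine of lymphatic vessels, between 40.6 and 60.3 CPM. Per length, Cldn5 exceeded Prox1 by 6.79 ± 0.25 on the log2 scale in 6 of 6 mice (exact permutation test, adjusted p = 0.0341). This pair holds for these genes and not for the lists. Pdpn, the member of the lymphatic list with the highest CPM, stood at 78.0 ± 5.4 TPM against 94.3 ± 13.9 TPM for Cldn5. Pdpn supplied 27.1% of the lymphatic list's counts, and which cells it came from was not tested. Reln, a matrix protein of lymphatic vessels and of some neurons, was highest in Control 3, at 80.1 CPM against 28.5 to 48.8 CPM in the others.

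Mural cells, the pericytes and smooth muscle around vessels, were represented by 14 of 14 genes, with a sum of 2284 to 3141 CPM. Acta2, smooth muscle actin, lay between 299 and 524 CPM with a median of 463, and the pericyte gene Rgs5 between 394 and 507 CPM with a median of 467. Per length Rgs5 was below Acta2 by 0.94 ± 0.28 on the log2 scale in 6 of 6 mice (exact permutation test, adjusted p = 0.0341). Without length the direction changed and no order was seen (0.11 ± 0.28 on the log2 scale, Rgs5 higher in 3 of 6 mice; exact permutation test, adjusted p = 0.4375).

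**Figure D2:**
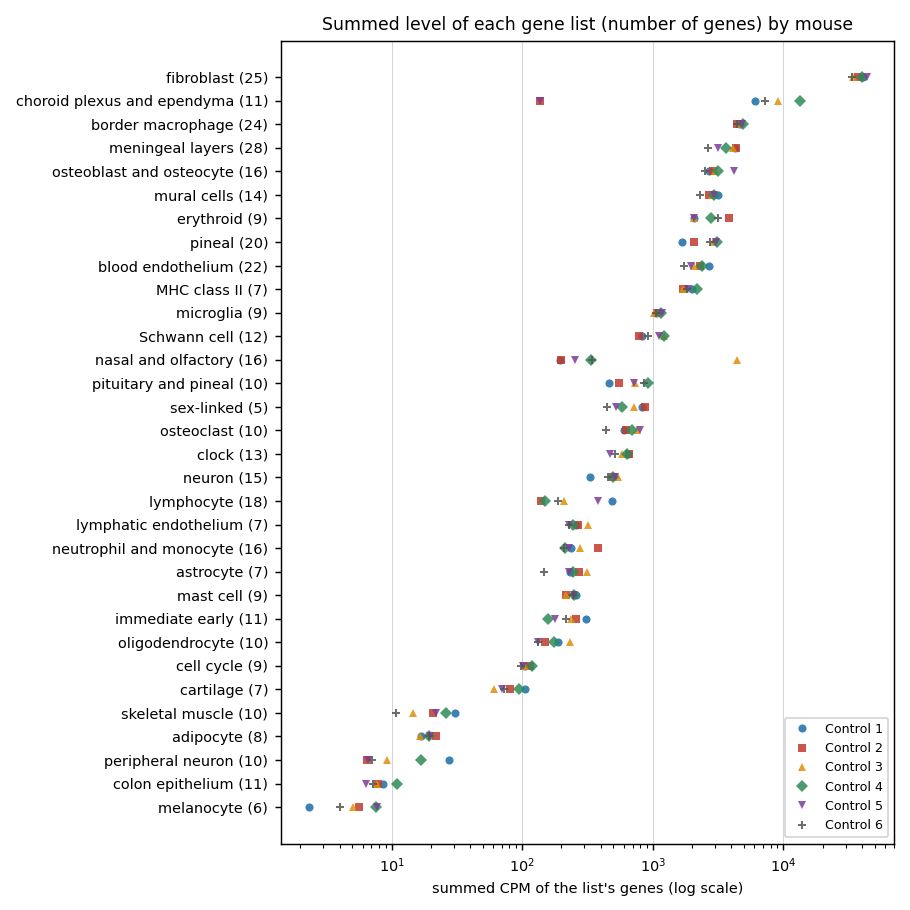
Summed CPM of each gene list in each control mouse, on a log axis, with the number of listed genes found in the table in parentheses and 1 symbol per mouse. Fibroblast, border macrophage and mural sums overlap closely between mice, choroid plexus sums are low in Controls 2 and 5, and the nasal sum stands apart in Control 3.

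Macrophage genes were the most even of the cell type lists with a sum above 1000 CPM. All 24 genes of border-associated and general macrophages were detected, with a sum of 4415 to 4885 CPM and a coefficient of variation of 4.25%. Apoe supplied 40.5% of the sum and is also made by other cells. Mrc1 (chr2:14229392-14332057, plus strand), the mannose receptor gene of border macrophages, lay between 192 and 278 CPM with a median of 242. Csf1r, the growth factor receptor gene that macrophages need, lay between 277 and 331 CPM with a median of 297. The complement genes C1qa, C1qb and C1qc had medians of 207, 171 and 181 CPM. Timd4, a receptor gene for dying cells, was at 1.88 to 2.34 CPM.

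Microglial genes were split. P2ry12, an adenosine diphosphate receptor gene of resting microglia, lay between 6.73 and 11.8 CPM with a median of 8.01, and Siglech at 8.64 to 12.7 CPM. Tmem119 and Olfml3, listed for microglia, lay at 174 to 216 CPM and 493 to 633 CPM. Tmem119 is also known from osteoblasts, and which cells supplied either gene was not tested. Per length, Mrc1 exceeded P2ry12 by 3.52 ± 0.31 on the log2 scale and Ccr2, the monocyte chemokine receptor gene, by 2.10 ± 0.12, each in 6 of 6 mice (exact permutation test, adjusted p = 0.0341).

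Antigen presentation genes of MHC class II were all detected, 7 of 7, with a sum of 1710 to 2174 CPM. Cd74, the invariant chain that chaperones class II molecules, lay between 694 and 894 CPM with a median of 751, and the class II genes H2-Aa, H2-Ab1 and H2-Eb1 had medians of 386, 327 and 308 CPM. Ciita, the transactivator that switches these genes on and had a median of 16.1 CPM. Control 4 was highest for all 5 of these genes.

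Mast cell genes were steady, with 8 of 9 detected and a sum of 216 to 258 CPM. The chymase gene Cma1 lay between 41.8 and 61.4 CPM with a median of 55.0, and the carboxypeptidase gene Cpa3 had a median of 44.6 CPM. Tpsb2, a mast cell tryptase gene, lay at 42.1 to 55.3 CPM.

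Genes of neutrophils and monocytes, taken as 1 list, were less even than mast cell genes. Of 16 genes, 14 were detected, with a sum of 209 to 382 CPM. The monocyte gene Ccr2 supplied 23.0% of the list's counts, the largest part, so the sum is not a level of granulocyte genes alone. S100a9 lay between 25.5 and 76.7 CPM with a median of 35.2, and S100a8, its partner in calprotectin, between 13.6 and 52.3 CPM with a median of 19.1. Control 2 was highest for both. It was also highest for Ltf, Camp, Lcn2, Mmp8 and Mpo, genes of granule proteins. Per length, S100a8 was below S100a9 by 1.18 ± 0.23 on the log2 scale in 6 of 6 mice (exact permutation test, adjusted p = 0.0341).

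Lymphocyte genes gave the widest spread among immune lists. Of 18 genes, 12 were detected, and their sum lay between 140 CPM in Control 2 and 489 CPM in Control 1, with a coefficient of variation of 54.8%. Immunoglobulin genes carried this spread. Ighm, the IgM heavy chain gene, lay between 66.4 and 324 CPM with a median of 102, highest in Control 1. Igkc, the kappa light chain gene, lay between 17.6 and 156 CPM with a median of 41.2, and was above 90 CPM in Controls 1 and 5 and below 50 CPM in the others. Ighg2c, an IgG heavy chain gene that is not in the list or its sum, was at 116 CPM in Control 5 and at 0.110 to 4.45 CPM in the others. The B cell receptor gene Cd79a was even, at 2.08 to 2.81 CPM, and the T cell receptor subunit gene Cd3e lay at 0.221 to 1.51 CPM. Per length, Cd79a exceeded Cd3e by 3.36 ± 0.89 on the log2 scale in 6 of 6 mice (exact permutation test, adjusted p = 0.0341). The ratio was highest in Control 2 (4.88), where Cd3e, at 0.221 CPM, lay under that mouse's floor of 3 counts (0.331 CPM). Without length the mean was 1.87 ± 0.89.

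Red cell genes moved with the mouse. Of 9 genes, 8 were detected, with a sum of 2062 to 3836 CPM. Hbb-bs, a beta-globin gene, was at 1179 CPM in Control 2 and 1012 CPM in Control 6, and at 580 to 826 CPM in the others. The alpha-globin gene Hba-a1 lay between 471 and 838 CPM with a median of 528. Hbb-bs and Hbb-bt, and Hba-a1 and Hba-a2, are near-identical copies, so the split of reads between them is uncertain.

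Bone genes were present in every mouse. Of 16 osteoblast and osteocyte genes, 14 were detected, with a sum of 2525 to 4210 CPM, highest in Control 5. Bglap (chr3:88383501-88384464, minus strand), an osteocalcin gene, was at 1123 CPM in Control 5 and at 417 to 659 CPM in the others. Bglap2 (chr3:88377736-88378699, minus strand), a near-identical neighbour whose reads cannot be separated with certainty, was at 1073 CPM in Control 5 and at 407 to 632 CPM in the others. Alpl, the alkaline phosphatase of mineralizing cells, was much more even, at 560 to 662 CPM with a median of 597. Runx2 and Sp7, the transcription factor genes of the osteoblast lineage, lay at 60.7 to 107 CPM and 42.2 to 70.4 CPM. The osteocyte genes Sost and Mepe were at or under 0.411 and 0.649 CPM.

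Osteoclast genes were detected for 9 of 10, with a sum of 442 CPM in Control 6 and up to 794 CPM in Control 5. Acp5, the tartrate-resistant phosphatase gene, lay between 107 and 278 CPM with a median of 185, and Ctsk, the collagen-cleaving cathepsin K gene, between 178 and 267 CPM with a median of 237. Ibsp, the bone sialoprotein gene, lay between 25.8 and 78.8 CPM with a median of 41.5. Per length it was below Acp5 by 2.08 ± 0.28 on the log2 scale in 6 of 6 mice (exact permutation test, adjusted p = 0.0341). This order holds for Ibsp and not for its list. Bglap2 (2624 ± 965 TPM) and Alpl (306 ± 27 TPM) lay above Acp5 (190 ± 57 TPM), and Runx2 (20.7 ± 3.7 TPM) below it. Of 7 cartilage genes found in the table, 4 were detected, and Acan, which encodes aggrecan, supplied 80.1% of their summed counts.

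Genes of peripheral glia were present in every mouse. Of 12 Schwann cell genes, 11 were detected, with a sum of 785 to 1217 CPM. Prx, a peripheral myelin gene, lay between 19.3 and 34.9 CPM with a median of 26.7, highest in Controls 1 and 3. Plekhb1 supplied 64.4% of the list's counts and is also listed among pineal genes.

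Central myelin genes were mostly absent or shared with Schwann cells. Of 10 oligodendrocyte genes, 5 were detected, among them Mbp, Cnp and Mag, which Schwann cells also express, and Mobp. Mog, a gene of central myelin alone, lay between 0.114 and 0.441 CPM, and Opalin at up to 0.137 CPM.

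Of 15 neuronal genes, 11 were detected, with a sum of 333 to 546 CPM, lowest in Control 1. Meg3, a long non-coding RNA, supplied 28.8% of the list's counts and lay between 95.1 and 173 CPM with a median of 135. Snap25, a vesicle fusion gene that is also in the pineal list, lay between 78.0 and 148 CPM with a median of 130. The neurofilament gene Nefl lay between 0.875 and 7.66 CPM, highest in Control 1. Of 10 genes of peripheral neurons, 2 were detected. Scn10a, a sodium channel gene of pain-sensing neurons, was at 5.01 CPM in Control 1 and at 0 to 0.114 CPM in the others, and Prph, the peripherin gene, was at 5.82 CPM in Control 1 and at 0.424 to 0.909 CPM in the others. Genes of astrocytes were all detected, 7 of 7, with a sum of 146 to 311 CPM. Gfap, their filament gene, lay between 13.1 and 23.8 CPM, and Gjb6, a connexin gene that meningeal cells share, between 55.0 and 107 CPM.

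**Figure D3:**
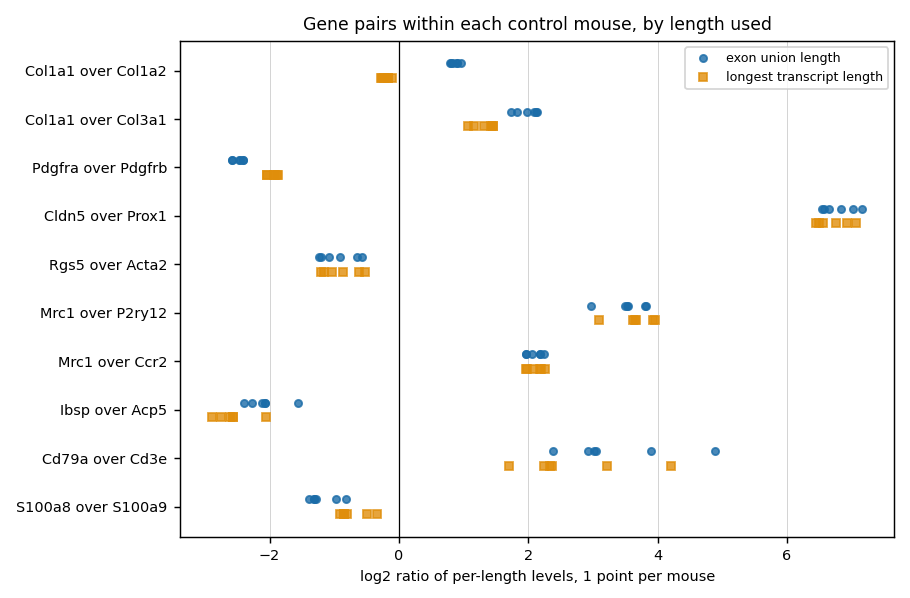
Log2 ratio of the per-length levels of 10 gene pairs within each control mouse, with 1 point per mouse, by exon union length (circles) and by longest transcript (squares). In 9 pairs all points lie on the same side of 0 under both lengths, and Col1a1 over Col1a2 changes sides.

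Genes of the choroid plexus, which secretes cerebrospinal fluid, had the highest ratio of the highest to the lowest mouse among the lists, 99.2, although their coefficient of variation, 86.4%, was below that of the nasal list described further on (177%). The summed level of 11 genes was 6097, 136, 9133, 13470, 137 and 7222 CPM in Controls 1 to 6. Ttr was at 4034, 15.5, 6089, 9100, 12.1 and 5223 CPM in the same order. Controls 2 and 5 thus lay far below the other mice. Enpp2, the autotaxin gene, was at 67.0 and 64.5 CPM in Controls 2 and 5 and at 1713 to 3786 CPM in the others. Kl, the klotho gene, Clic6, Folr1, a folate receptor gene, and Sostdc1 split the mice in the same way, each below 10 CPM in Controls 2 and 5 and above 28 CPM in the others. Otx2, a transcription factor gene of both choroid plexus and pineal gland, did not: it lay at 29.6 and 38.6 CPM in Controls 2 and 5 and at 34.9 to 62.9 CPM in the others, which overlap.

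Kcnj13 (GRCm38 chr1:87386363-87394729, minus strand), a potassium channel gene of choroid plexus epithelium, had 8.16 and 3.23 CPM in Controls 2 and 5 and 34.1 to 67.6 CPM in the others. It lies inside Gigyf2, a gene on the opposite strand, so without a stated strand setting some of its counts may belong to Gigyf2. The 250 bases before its RefSeq start (GRCm38.p6, chr1:87394730-87394979, minus strand) are shown because this gene moved with the choroid plexus genes. Capitals mark the letters CCAAT, read on either strand, at 96 and 71 bases before the start. These letters occur in 33.8% of the 32851 RefSeq windows of the same length.
Kcnj13: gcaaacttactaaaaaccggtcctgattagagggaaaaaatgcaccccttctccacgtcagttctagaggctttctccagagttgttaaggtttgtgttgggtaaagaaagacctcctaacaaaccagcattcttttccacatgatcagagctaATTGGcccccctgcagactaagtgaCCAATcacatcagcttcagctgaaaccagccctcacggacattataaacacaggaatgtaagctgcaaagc

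Genes outside the list with the same split were picked after their values were seen. At a mean CPM of at least 1, 87 of 17042 genes had both Control 2 and Control 5 more than 3 times below the lowest of the other mice. Of the 87, 8 were list members and 79 lay outside the list. The list holds only 11 genes, so lying outside it does not set a gene apart from the choroid plexus. Which tissues the 79 genes mark was not tested. A gene listed for another tissue, the olfactory gene Omp (2.87 and 3.39 CPM against 13.7 to 97.8 CPM), had the split too. Those outside the list included the prolactin receptor gene Prlr (3.31 and 2.49 CPM against 35.0 to 85.8 CPM), the serotonin receptor gene Htr2c (0.331 and 0.424 CPM against 34.8 to 75.8 CPM) and the claudin gene Cldn2 (1.98 and 3.55 CPM against 19.7 to 42.6 CPM). The list member Foxj1, which drives the making of motile cilia, had 0.662 and 1.27 CPM in Controls 2 and 5 and 7.57 to 15.5 CPM in the others. How much choroid plexus each preparation held was not recorded in the labels and was not tested.

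Pineal genes, a list chosen after values were seen, were in contrast high in every mouse. Of 20 genes, 18 were detected, with a sum of 1688 to 3080 CPM, lowest in Control 1, and 8 of the 20 stand in another list too. Tph1, which starts the synthesis of serotonin from tryptophan, lay between 253 and 755 CPM with a median of 576. Aanat, the rate-limiting enzyme of melatonin synthesis, lay between 9.48 and 25.1 CPM with a median of 19.7, and Asmt, the last enzyme of that pathway, between 15.1 and 32.8 CPM with a median of 18.5. Genes the pineal gland shares with photoreceptors were also present. Rbp3, a retinoid-binding protein gene, lay between 161 and 269 CPM, Gnb3, a G protein subunit gene, between 189 and 375 CPM, and Rom1, a photoreceptor disc gene, between 95.1 and 193 CPM.

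Crx, the homeobox gene that drives pineal and photoreceptor genes, lay between 66.0 and 100 CPM with a median of 87.9. Sag, which encodes arrestin of photoreceptors and pineal cells, lay between 80.8 and 142 CPM with a median of 94.0, highest in Control 3. The 250 bases before the RefSeq starts of these genes (GRCm38.p6) are shown because Crx protein binds the letters GGATTA, searched on both strands and marked in capitals. The Crx window is chr7:15879956-15880205 on the minus strand, with matches at 94 and 21 bases before the start. The Sag window is chr1:87803430-87803679 on the plus strand, with a match at 87 bases before the start.
Crx: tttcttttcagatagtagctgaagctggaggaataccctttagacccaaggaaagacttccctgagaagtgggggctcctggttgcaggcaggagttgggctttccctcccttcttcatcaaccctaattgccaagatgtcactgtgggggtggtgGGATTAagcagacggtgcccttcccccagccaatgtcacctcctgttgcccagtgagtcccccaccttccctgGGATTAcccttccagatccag
Sag: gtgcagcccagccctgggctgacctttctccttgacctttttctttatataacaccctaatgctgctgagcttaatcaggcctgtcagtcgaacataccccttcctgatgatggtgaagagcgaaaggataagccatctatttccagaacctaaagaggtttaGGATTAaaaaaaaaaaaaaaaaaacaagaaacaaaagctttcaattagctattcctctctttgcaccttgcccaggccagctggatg

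Either strand of GGATTA occurred in 4 of the 17 pineal genes with a RefSeq window, and in 6.25% of the 32851 windows. This is not particular to the pineal list. Of the genes with a window, 4 of 20 in the meningeal layers list held these letters too, and 0 of 18 in the fibroblast list. A match of 6 letters is a description of the sequence and not evidence of binding. No match was found in the Tph1 window.

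Pituitary hormone genes were uneven. Prl, the prolactin gene, was at 60.1, 20.9 and 13.8 CPM in Controls 1, 2 and 4 and at 0 to 0.106 CPM in the others. Gh, the growth hormone gene, was at 36.1, 13.3 and 5.41 CPM in the same mice and at 0 to 0.13 CPM in the others. The mice with Prl above 10 CPM were thus those with Gh above 5 CPM, and Control 1 was the highest for both and for Pomc (5.13 CPM against 0.689 to 1.58 CPM).

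Nasal and olfactory genes, another list chosen after values were seen, stood out in Control 3. The sum of 16 genes was 4415 CPM there and 195 to 344 CPM in the other mice. Bpifb9b (chr2:154307227-154320646, plus strand), a secreted protein gene of the BPI fold family, was at 2109 CPM in Control 3 and at 51.0 to 150 CPM in the others. The odorant-binding protein genes Obp1a and Obp1b were at 116 and 175 CPM in Control 3 and at no more than 7.72 and 12.5 CPM in the others. Omp, the marker gene of mature olfactory neurons, was at 97.8 and 84.1 CPM in Controls 3 and 4 and at 2.87 to 19.4 CPM in the others. Control 4 was thus high for Omp and not for Obp1a (1.78 CPM) or Obp1b (1.85 CPM). Bpifb9a and Bpifb9b, and Obp1a and Obp1b, are near-identical copies, so the split of reads between them is uncertain.

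**Figure D4:**
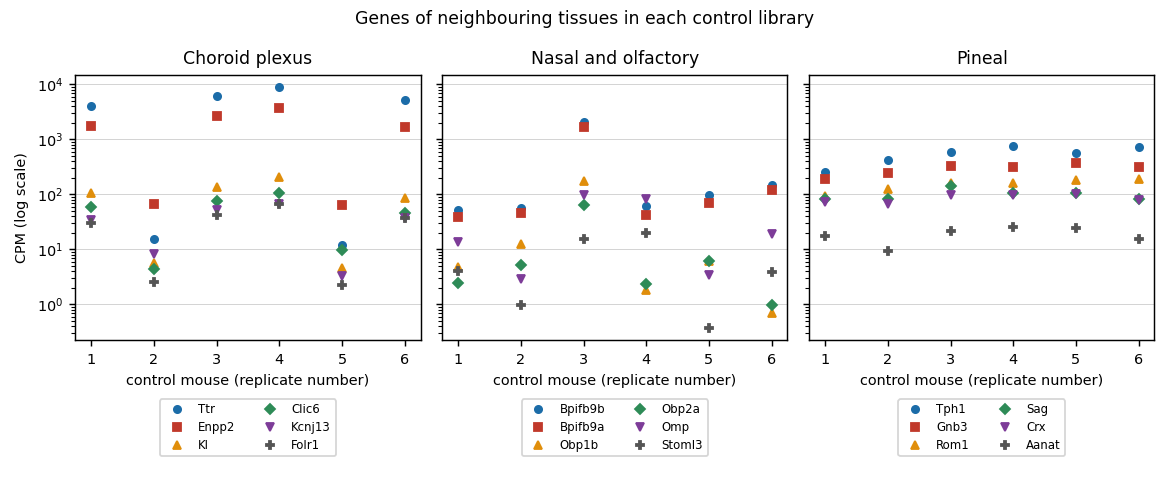
CPM of 6 choroid plexus, 6 nasal and olfactory, and 6 pineal genes in Controls 1 to 6, on a log axis. Choroid plexus genes drop in Controls 2 and 5, gland-type nasal genes rise in Control 3, and pineal genes vary less.

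Other tissues left little RNA in these libraries. None of 6 melanocyte genes was detected, and Dct, a melanin synthesis gene, had the highest level of them at 0.954 to 4.66 CPM. Of 10 skeletal muscle genes, 1 was detected. Of 8 adipocyte genes, 2 were detected, Fabp4 and Pparg, which other cells also express, and Adipoq, the adiponectin gene, stayed at 0.149 to 0.371 CPM.

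Genes that follow sex, time of day and handling were read as well. Xist, the RNA that silences an X chromosome, lay between 446 and 867 CPM with a median of 650, and overlaps its antisense gene Tsix. The Y-linked genes Ddx3y, Kdm5d, Eif2s3y and Uty had 0 counts in every mouse. Clock genes were detected for 12 of 13, with a sum of 474 to 658 CPM. Per1 lay between 18.7 and 47.0 CPM with a median of 31.8, and was above 39 CPM in Controls 1 to 3 and below 25 CPM in Controls 4 to 6. Nr4a1, an immediate early gene, showed the same split, which was picked after values were seen, at 31.8, 33.2 and 35.7 CPM in Controls 1 to 3 and at 5.62, 8.43 and 13.7 CPM in Controls 4 to 6. Fos lay between 5.14 and 29.9 CPM with a median of 15.4 and did not follow that split, since Control 6 (15.4 CPM) lay above Control 2 (15.3 CPM). The labels give no time of culling, and its part was not tested.

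Genes of the cell cycle were even between mice. Of 9 such genes, 8 were detected, with a sum of 97.3 to 118 CPM. Mki67, a marker gene of cycling cells, lay between 11.6 and 21.7 CPM with a median of 17.9, and Pcna, a replication clamp gene with further roles in repair, between 48.4 and 55.5 CPM.

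Most genes varied little between mice. Over 17042 genes with a mean CPM of at least 1, the median biological coefficient of variation was 12.9%, with quartiles of 8.38% and 19.7%. At a mean CPM of at least 20, where counting error is small, the median over 8014 genes was 11.2%, and 86 genes, or 1.07%, exceeded 50%. Of those 86 genes, 28 were lower in Controls 2 and 5 than in the other mice, the pattern described for the choroid plexus genes. The olfactory gene Omp is among them. The share of all genes with this order was not computed, so the count cannot be set against it. The 86 genes were also chosen for a wide spread, which such a split itself raises.

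Leaving out placeholder symbols such as predicted genes, the most even genes at a mean CPM of at least 20 were Smg9, a gene of nonsense-mediated decay, Mtmr9, Josd1, Tor1b, Cd302, Wbp4, Hsdl1, Rnf130, Rgl2 and Cers5. Their variance over mice did not exceed the counting variance. Smg9 lay between 21.7 and 22.7 CPM and Cd302, a lectin receptor gene, between 61.6 and 66.0 CPM.

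By the same rule, the most variable were Lars2, Ighg2c, Obp1b, Obp1a, Bpifb9a, Bpifb9b, Pex2, Omp, Rps6-ps4 and Rpl17-ps5. Lars2 (chr9:123366927-123462666, plus strand), which encodes the mitochondrial leucyl-tRNA synthetase, was at 15342 CPM in Control 2 and at 106 to 414 CPM in the others. Pex2, a peroxisome assembly gene, was at 300 CPM in Control 2 and at 26.7 to 37.0 CPM in the others. Gm42418, a non-coding RNA gene on chromosome 17 whose span holds AY036118, was at 34615 CPM in Control 2 and at 1414 to 2975 CPM in the others. Control 2 is the mouse with 59.8% of counts in 18S features, and the part of that in these levels was not tested. With Control 2 left out, Lars2 and Pex2 were no longer among the 10 most variable genes, and the transfer RNA gene mt-Ts1 and the pseudogene Oaz1-ps took their place.

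**Figure D5:**
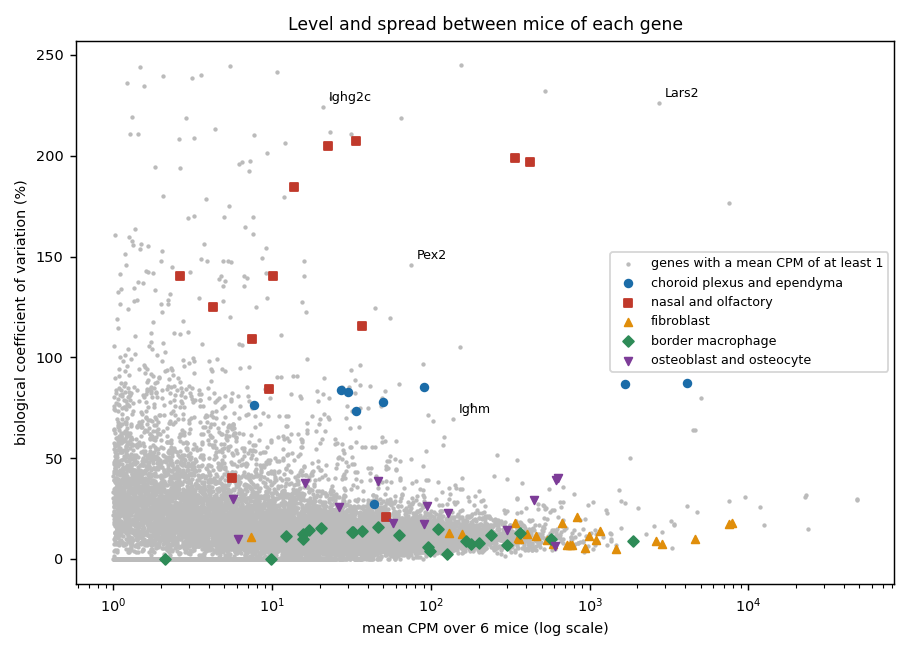
Biological coefficient of variation over the 6 control mice against mean CPM on a log axis, for genes with a mean CPM of at least 1, with 5 gene lists in colour. Fibroblast and border macrophage genes lie low, choroid plexus genes lie mostly between 70% and 90%, and Bpifb9b, Bpifb9a and Lars2 lie near or above 200%.

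The mice differed in how often they stood alone. At a mean CPM of at least 1, 26 genes were over 3 times higher in Control 3 than in every other mouse, and 5 to 14 genes were so in each of the other mice. Conversely, 51 genes in Control 6 and 46 genes in Control 2 were more than 3 times below every other mouse, and 13 to 28 genes in each of the rest. Control 6 had the largest share of the 13 features taken as structural RNAs in the total, 31.0%. TMM scaling, which allows for such differences, raised the levels of Control 6 by 0.19 on the log2 scale.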

How the data were processed

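Stranded libraries of total RNA were made from meninges and sequenced by the authors, as the labels' protocols give it. The raw table deposited by the authors holds whole-number counts per gene symbol. The second deposited table holds a normalized signal, in which each column equals the counts times 1 factor per library, and was not used further. The submitters' processing notes name CASAVA, FastQC, Trim Galore, HISAT2, featureCounts and mm10, in no stated order. For versions, annotation, strand setting and multiple mapping the entry is "not given in the sources used here", so near-identical, overlapping and antisense genes are uncertain. Column headings matched each mouse, and 0 columns were left without a sample.

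CPM used the total without 6 ribosomal and 7SL features. TPM used the union of annotated exons in GENCODE release M21 for 45323 of 47747 symbols (94.9%), over every feature with a length. The biological coefficient of variation is that of CPM with Poisson variance removed, set to 0 where none remains; ties at 0 were ordered by the raw coefficient. Pairs were compared with an exact sign-flip permutation test within mice. Of 12 pairs tested, 10 are given, with p-values adjusted over all 12; some genes are not reported here. Estimates were tested on simulated data. Python 3.11.15 and R 4.3.3 were used, with edgeR 4.0.16 and DESeq2 1.42.0 only for alternative scalings and dispersion. Other alternatives were another denominator, length, filter or pseudocount, and mice left out.

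Named genes were the 25 with the highest CPM, list members, pairs, and the 10 most and least variable genes with a mean CPM of at least 20, without placeholder symbols; any other gene was picked after its values were seen. Members and lists were chosen with earlier results of these data known. The nasal and pineal lists, the 13 structural features and the nuclear coding denominator were chosen after seeing the data. Nothing in the labels gives a shared cage, day or batch. The p-value of the sign-flip test is 0.03125 whenever all 6 mice share a direction, whatever the spread between them. It does not cover the error of the gene lengths used. Limits from counts cover counting error only.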

Additional observations from a re-analysis of the deposited data

Results flagged for a closer look

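A mouse was singled out where its gap to the nearest other mouse was a larger share of the range of all 6 than Dixon's 95% critical value. Of 223 results tested, 27, or 12.1%, were singled out, and chance does so in about 1 of 20. The tested results include genes named for their spread and the nasal list, chosen after values were seen, so the share cannot be read against chance.

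Control 2 was apart with 67.7% of counts in the left-out features and 59.8% in 18S features. It was also high in Lars2 (15342 CPM), Gm42418 (34615 CPM) and Pex2 (300.1 CPM). The granulocyte genes S100a8 (52.3 CPM), S100a9 (76.7 CPM) and Lcn2 (17.97 CPM) were highest in the same mouse.

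Control 3 was apart in the nasal and olfactory sum, at 4415 CPM. Its single genes were Bpifb9a (1704 CPM), Bpifb9b (2109 CPM), Obp1a (116 CPM) and Obp1b (175 CPM).

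Control 1 was apart in the pituitary genes Gh (36.1 CPM), Prl (60.1 CPM) and Pomc (5.13 CPM). It was also high in the neuronal genes Nefl (7.66 CPM), Prph (5.82 CPM) and Scn10a (5.01 CPM), in Ighm (324 CPM), and low in Snap25 (78.0 CPM). Control 5 was high in Bglap (1123 CPM), Bglap2 (1073 CPM), Asmt (32.8 CPM) and Ighg2c (116 CPM). Control 6 was high in AC157822.2 (75230 CPM, 36585 to 50349 CPM in the others) and low in Cldn11 (94.6 CPM). What lies behind these values was not tested.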

How the results depend on the processing

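No paired analysis was possible because replicate numbers could pair control mice only with the DSS group, which was not compared; gene ratios were taken within each mouse. Col1a1 over Col1a2, 0.86 on the log2 scale per exon union length, became -0.21 with the longest transcript and -0.057 without length. Rgs5 over Acta2, -0.94, became 0.11 without length. The other 8 of 10 pairs kept their direction under both lengths. All 10 kept it with a pseudocount of 1 count and with each mouse left out, where 5 mice allow no p under 0.0625. The number of detected genes was 31673 when 1 count in any mouse sufficed. The median biological coefficient of variation, 12.9%, was 15.9% with edgeR's tagwise dispersion, and between 11.0% (without Control 6) and 13.3% (without Control 4) with a mouse left out. Of 32 list sums, 26 moved by more than the SD between mice with all counts as the denominator and 28 with nuclear coding counts, an alternative chosen after seeing the data, since each rescales every gene of a mouse. With TMM or DESeq2 factors, or a mouse left out, 0 of 32 moved by more than that SD, but the nasal sum, whose SD rests on Control 3, fell from 957 to 265 CPM without that mouse. These are means over mice, and the order of mice within a list can still change with the scaling, as for the fibroblast list. Depth limits genes near 0.389 CPM in Control 3, and only 6 mice limit every spread.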
